A study of Mus musculus with 3 samples.

Results

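The 4 Hox clusters (HoxA, HoxB, HoxC and HoxD) of mouse primordial germ cells were examined for a pair of histone modifications, H3K4me3 and H3K27me3. The members were all called regions of either mark that overlapped 4 windows on mouse genome build mm9. These windows were chromosome 6 from 52080001 to 52230000 for HoxA, chromosome 11 from 96030001 to 96260000 for HoxB, chromosome 15 from 102720001 to 102900000 for HoxC, and chromosome 2 from 74470001 to 74620000 for HoxD. They held 122 of the 66659 regions in the series, namely 100 of 47928 H3K4me3 regions and 22 of 18731 H3K27me3 regions. The windows were chosen by the measured extent of H3K27me3 and H3K4me3 in these same lists, so the positions of the regions and the overlap of the marks are given as a description and not tested. The germ cells came from E11.5 embryos of Oct4:GFP transgenic B6 mice crossed to Swiss-Webster females. They were sorted as GFP-positive cells from the gonadal regions of several embryos, which were combined before dissociation. Chromatin of 104000 and of 97000 cells was used, and equal parts of each went to the antibody against H3K4me3, the antibody against H3K27me3 and an input. Each mark has 1 deposited list that stands for 2 replicates. Input data were not used here. The lists hold positions only, so depth is unknown and the spread between replicates cannot be given.

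Hox genes encode homeodomain transcription factors that give cells their position along the head-to-tail axis and, later, along the limbs and genital tract. Within each cluster the genes stand in the order in which they act along the axis, from anterior genes with low numbers to posterior genes with high numbers. H3K27me3 is laid down by Polycomb complexes and covers Hox clusters in cells that keep them silent, whereas H3K4me3 is typical of CpG-rich promoters. Chromatin that carries both is called bivalent. The 38 genes counted here comprise 10 of HoxA (Hoxa2 to Hoxa13), 10 of HoxB (Hoxb1 to Hoxb13), 9 of HoxC (Hoxc4 to Hoxc13) and 9 of HoxD (Hoxd1 to Hoxd13). Anterior members include Hoxa2 and Hoxb1, which pattern the hindbrain and its neural crest. Central members such as Hoxa5, Hoxb8 and Hoxc8 pattern the neck and trunk. Posterior members include Hoxa10 and Hoxa11, which act in the uterus. Also posterior are Hoxa13 and Hoxd13, which shape the digits and the urogenital outlet, and Hoxc13, which acts in hair and nails. The genes were not assigned to single regions, because no annotation of build mm9 was used here. The germ cell markers were not examined for the same reason.

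The direction of each cluster was taken from the order of these genes in a RefSeq table of assembly GRCm38. In that order the group 13 gene is at the end with higher coordinates in HoxA and at the end with lower coordinates in HoxB, HoxC and HoxD. These ends are called posterior below, and the opposite ends anterior. It was assumed, and not checked on mm9, that the clusters have the same direction in both builds. Of the 38 genes, 22 had a promoter sequence in the RefSeq table of GRCm38.p6. To show what kind of sequence stands at the ends of the clusters, the 250 bases before the transcription start are printed for the genes at the ends of the clusters other than Hoxb13 and Hoxc13, 5′ to 3′ on the gene's strand, with CpG dinucleotides in capitals. Their positions on GRCm38.p6 are chr6:52260881-52261130 (minus strand) for Hoxa13, chr6:52164832-52165081 (minus strand) for Hoxa2, chr11:96365508-96365757 (plus strand) for Hoxb1, chr15:103034145-103034394 (plus strand) for Hoxc4, chr2:74667975-74668224 (plus strand) for Hoxd13 and chr2:74762730-74762979 (plus strand) for Hoxd1. These positions cannot be set beside the mm9 positions given for the called regions.
Hoxa13: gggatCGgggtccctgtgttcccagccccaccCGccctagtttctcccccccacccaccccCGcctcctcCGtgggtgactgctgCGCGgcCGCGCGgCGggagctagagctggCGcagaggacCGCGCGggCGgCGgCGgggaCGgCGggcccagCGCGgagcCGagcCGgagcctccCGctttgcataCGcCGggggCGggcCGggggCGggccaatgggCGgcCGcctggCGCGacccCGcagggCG
Hoxa2: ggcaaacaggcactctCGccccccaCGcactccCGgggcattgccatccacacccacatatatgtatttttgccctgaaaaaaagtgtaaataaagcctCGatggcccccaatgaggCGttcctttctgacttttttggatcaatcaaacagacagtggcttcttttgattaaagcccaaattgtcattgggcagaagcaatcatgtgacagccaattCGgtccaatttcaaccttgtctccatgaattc
Hoxb1: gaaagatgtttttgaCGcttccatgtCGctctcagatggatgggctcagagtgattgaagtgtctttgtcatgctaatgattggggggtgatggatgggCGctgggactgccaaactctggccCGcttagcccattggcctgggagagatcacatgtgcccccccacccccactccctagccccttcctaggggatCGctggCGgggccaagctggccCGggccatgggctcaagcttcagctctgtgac
Hoxc4: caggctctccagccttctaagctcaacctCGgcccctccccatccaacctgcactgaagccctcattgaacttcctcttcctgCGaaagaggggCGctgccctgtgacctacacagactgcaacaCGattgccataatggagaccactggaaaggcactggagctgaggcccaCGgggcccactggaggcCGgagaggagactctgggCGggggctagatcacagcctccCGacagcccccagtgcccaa
Hoxd13: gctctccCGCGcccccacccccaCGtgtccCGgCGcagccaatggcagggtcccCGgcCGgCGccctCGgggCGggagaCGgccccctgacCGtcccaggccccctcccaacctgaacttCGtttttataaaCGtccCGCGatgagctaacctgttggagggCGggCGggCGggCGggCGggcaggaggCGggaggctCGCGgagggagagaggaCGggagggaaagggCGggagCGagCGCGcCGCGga
Hoxd1: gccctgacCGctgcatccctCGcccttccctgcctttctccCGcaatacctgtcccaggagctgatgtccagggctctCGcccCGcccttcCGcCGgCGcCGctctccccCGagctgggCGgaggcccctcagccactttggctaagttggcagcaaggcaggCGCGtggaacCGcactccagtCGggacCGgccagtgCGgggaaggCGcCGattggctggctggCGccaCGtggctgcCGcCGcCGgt

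The posterior genes Hoxa13 and Hoxd13 had 35 and 31 CpG dinucleotides in this stretch. The anterior gene Hoxd1 had 24, whereas Hoxc4 had 8, Hoxb1 had 7 and Hoxa2 had 6. A high CpG count in these 250 bases was thus not shared by all of these genes. Over the 24 starts of the 22 Hox genes the number ranged from 2 to 35 with a median of 12.5. The median was 6 over 32851 starts of 27025 genes in the same table. At least 10 CpG dinucleotides stood before 15 of the 24 Hox starts (62.5%) and 37.8% of all starts. Of the 24 starts, 10 belonged to HoxA, 10 to HoxD, 3 to HoxB and 1 to HoxC, so HoxB and HoxC were hardly represented. These counts describe the reference sequence and do not place a histone mark at any of these starts.

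H3K27me3 covered most of every window, in each case mainly as 1 very wide region. In the HoxA window 3 H3K27me3 regions covered 125.8 kb (83.9% of the window), and the widest, from 52099401 to 52206600, measured 107.2 kb. The HoxD window was alike, with 3 regions covering 121.2 kb (80.8%) and a widest region of 113.6 kb (74481401 to 74595000). In the HoxC window 6 regions covered 161.4 kb (89.7%), and the widest, from 102735201 to 102877200, measured 142 kb. The HoxB window was the most broken, with 10 regions covering 187.8 kb (81.7%) and a widest region of 132.2 kb (96106601 to 96238800). The widest region alone made up 93.7% of the H3K27me3 length in the HoxD window, 88.0% in HoxC, 85.2% in HoxA and 70.4% in HoxB. In width these 4 ranked 1 (HoxC), 2 (HoxB), 3 (HoxD) and 6 (HoxA) among all 18731 H3K27me3 regions. The windows together held 0.943% of all H3K27me3 length and 0.200% of all H3K4me3 length.

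The breaks between neighbouring H3K27me3 regions were few and short in HoxA and HoxD, and more numerous in HoxC and HoxB. A break is sequence between called H3K27me3 regions and does not show that the mark was absent there. HoxA had 2 breaks, of 800 bp (52206601 to 52207400) and 1.6 kb (52221001 to 52222600), both beyond the posterior end of its widest region. They set apart regions of 13.6 kb (52207401 to 52221000) and 5.0 kb (52222601 to 52227600). HoxD had 2 breaks, of 800 bp and 1.4 kb, both at its anterior end, which set apart regions of 600 bp (74595801 to 74596400) and 7.0 kb (74597801 to 74604800). HoxC had 5 breaks of 800 bp to 6.2 kb, with a median of 1.6 kb. Its small regions lay on both sides of the widest one, with 1.2 kb (102725601 to 102726800) and 1.4 kb (102733001 to 102734400) on the posterior side. On its anterior side lay 3.4 kb (102880801 to 102884200), 12 kb (102885801 to 102897800) and 3.2 kb (102898601 to 102901800). HoxB had 9 breaks of 600 bp to 17.4 kb, with a median of 2.8 kb. Of the 18 breaks in the 4 windows, 11 were 2 kb or shorter.

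HoxB differed from the other clusters in its posterior part. Between 96052201 and 96106600 the calls consisted of separate H3K27me3 regions of 7.6 kb (96052201 to 96059800), 3.8 kb (96077201 to 96081000), 5.0 kb (96087801 to 96092800), 7.8 kb (96093401 to 96101200) and 800 bp (96104001 to 96104800). The longest break, 17.4 kb from 96059801 to 96077200, held an H3K4me3 region of 5.0 kb (96061001 to 96066000) and another of 200 bp (96067201 to 96067400). No H3K27me3 region overlapped either of them. Farther out, a 27.6 kb H3K27me3 region (96023401 to 96051000) crossed the window's end. It was divided from the 7.6 kb region by a 1.2 kb break that an H3K4me3 region of 1.6 kb (96051001 to 96052600) filled completely. On the anterior side of HoxB lay H3K27me3 regions of 6.6 kb (96239401 to 96246000), 1.2 kb (96251201 to 96252400) and 25.4 kb (96258201 to 96283600). In the gene order the posterior end of HoxB is Hoxb13, a gene of the tail and prostate, followed by Hoxb9. Which of these regions belongs to which gene was not examined.

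**Figure D1:**
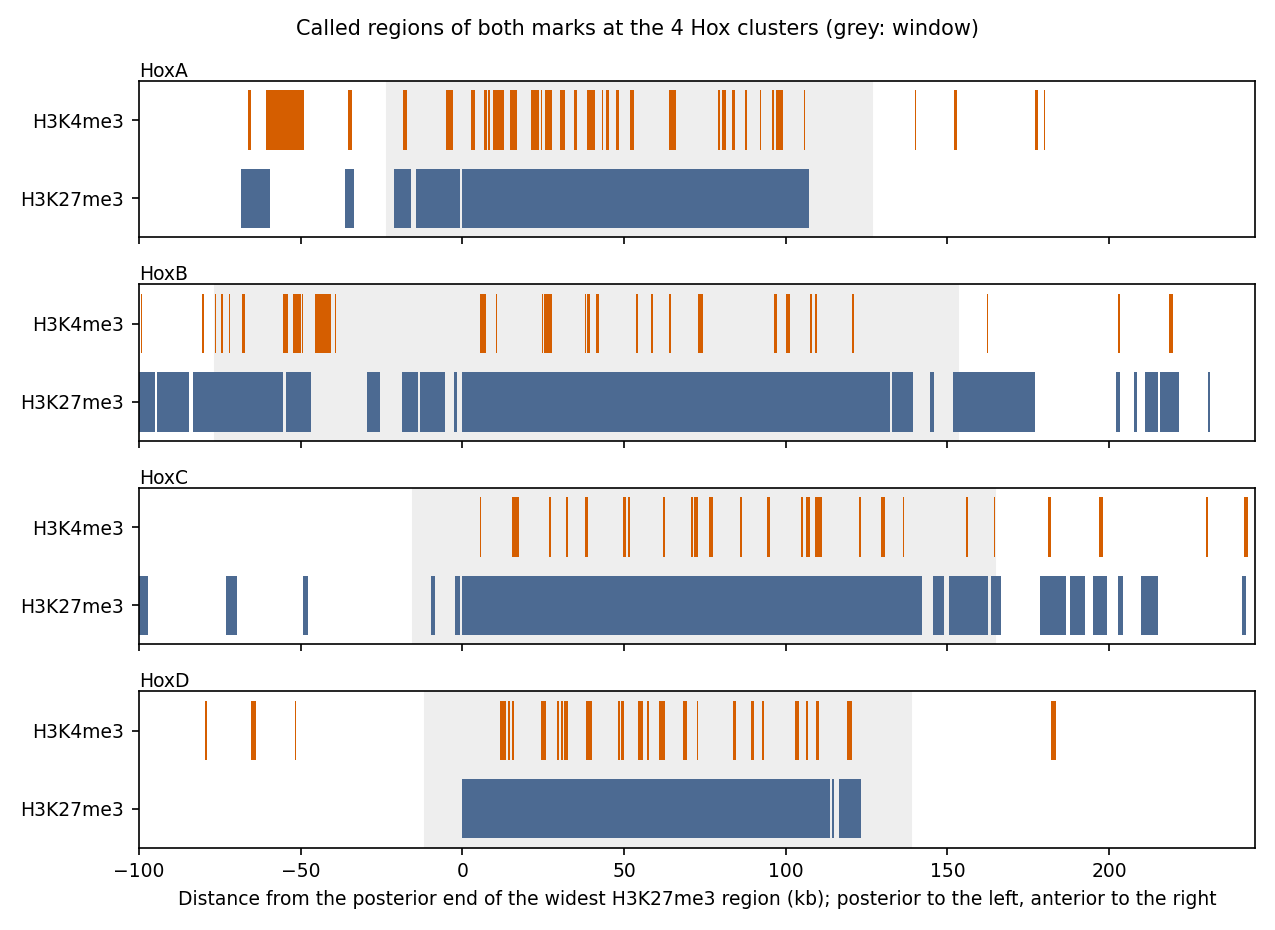
Called H3K27me3 (blue) and H3K4me3 (orange) regions at each Hox cluster, by distance in kb from the posterior end of its widest H3K27me3 region, with the window shaded grey and posterior to the left. Each cluster shows 1 long blue block of 107.2 to 142 kb dotted with orange regions, and HoxB shows a run of separate blocks to its left.

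The number of H3K4me3 regions was nearly the same in every window, but their widths were not. There were 26 in HoxA, 27 in HoxB, 23 in HoxC and 24 in HoxD, which is 2.60, 2.70, 2.56 and 2.67 per Hox gene counted. H3K4me3 covered 33.8 kb of the HoxA window (22.5%), 25.6 kb of HoxB (11.1%), 18.8 kb of HoxC (10.4%) and 22.2 kb of HoxD (14.8%). HoxA thus had the most H3K4me3 although its window was no longer than that of HoxD. The median H3K4me3 width was 1100 bp in HoxA (quartiles 650 and 2000 bp) and 800 bp in HoxD (550 and 1300 bp). It was 600 bp both in HoxB (400 and 1100 bp) and in HoxC (500 and 1000 bp). Regions of 2 kb or more numbered 8 in HoxA, 3 in HoxB, 2 in HoxC and 0 in HoxD. Narrow regions of 400 bp or less numbered 12 in HoxB, 6 each in HoxC and HoxD, and 5 in HoxA. Over the 4 windows the median was 800 bp, equal to that of all H3K4me3 regions in the genome, and 29.0% were 400 bp or narrower, against 39.2% of all. Counting only regions wider than 400 bp, the numbers were 21 in HoxA, 15 in HoxB, 17 in HoxC and 18 in HoxD, so the near equality of the counts rested on the narrow calls. With 1 list per mark, the differences between clusters could not be set against replicates.

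The widest H3K4me3 regions of HoxA measured 3.4 kb (52193601 to 52197000), 2.6 kb (52182801 to 52185400) and 2.4 kb (52165601 to 52168000). All 3 stood toward the posterior end of the HoxA domain. In HoxB the widest was the 5.0 kb region free of H3K27me3, which ranked 320 in width among all H3K4me3 regions. It was followed in HoxB by 2.4 kb (96131801 to 96134200) inside the widest H3K27me3 region and 2.2 kb (96054401 to 96056600) inside the 7.6 kb one. HoxC had a pair of 2.2 kb regions toward opposite ends of its domain (102750601 to 102752800 and 102844201 to 102846400) and one of 1.4 kb (102811401 to 102812800) between them. In HoxD 4 regions tied at 1.8 kb. They started at 74493001, 74519601, 74535601 and 74600201, the last of them in the 7.0 kb H3K27me3 region at the anterior end.

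H3K4me3 regions were most closely spaced in HoxA and HoxD and most widely in HoxC. The median gap between neighbouring H3K4me3 regions was 2.8 kb in HoxA (quartiles 1.2 and 4.0 kb), 3.2 kb in HoxD (0.70 and 5.5 kb), 3.7 kb in HoxB (1.35 and 9.8 kb) and 7.0 kb in HoxC (2.05 and 9.5 kb). Among regions wider than 400 bp the order of the last 2 changed, with 8.4 kb in HoxB and 7.9 kb in HoxC. The quartile ranges overlapped, and the genome-wide median gap was 13.2 kb. Gaps under 1 kb, which join regions into pairs or short runs, numbered 4 in HoxA, 5 in HoxB, 5 in HoxC and 7 in HoxD. One such run in HoxC comprised 4 regions between 102840001 and 102842600. Gaps over 10 kb numbered 3 in HoxA, 7 in HoxB, 4 in HoxC and 1 in HoxD. The longest gap was 44.8 kb in HoxB, between 96067400 and 96112201, where the posterior H3K27me3 regions lacked H3K4me3. It was 19.2 kb in HoxC, 13 kb in HoxA and 10.8 kb in HoxD.

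**Figure D2:**
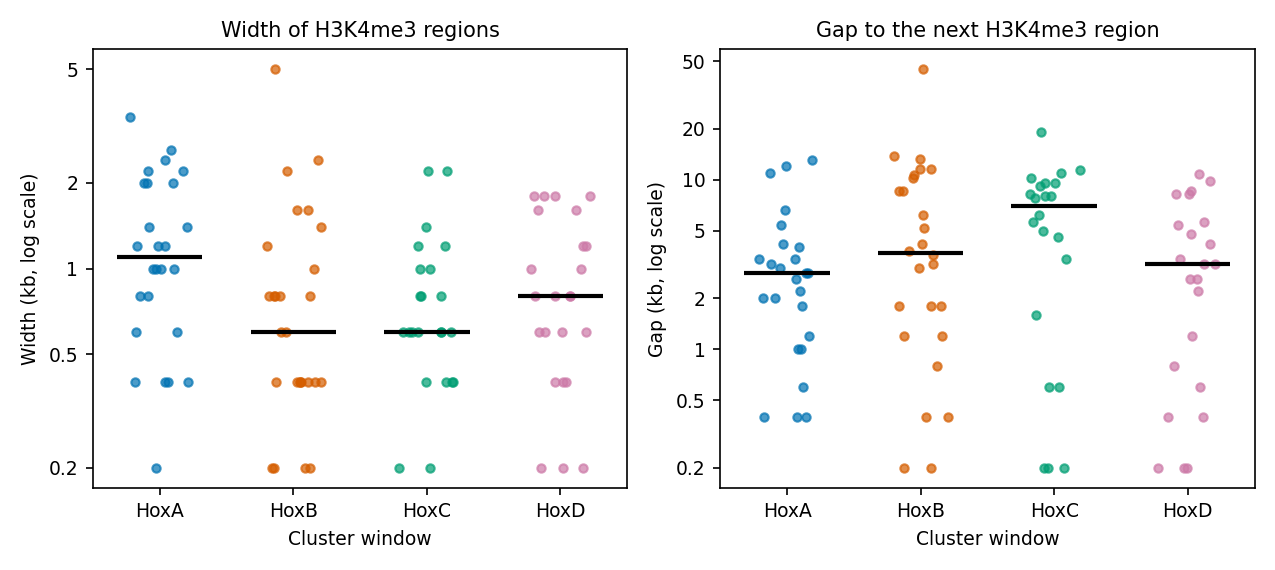
Width of each H3K4me3 region (left) and gap to the next one (right), in kb on a log scale, for the 4 windows, with 1 point per region or gap and the median as a bar. Median widths lie between 600 and 1100 bp and median gaps between 2.8 and 7.0 kb, and the points of the clusters overlap widely.

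Nearly all H3K4me3 regions of the Hox windows lay inside H3K27me3. Of the 100 regions, 98 overlapped H3K27me3 by at least 1 bp (98.0%, 95% Wilson interval 93.0 to 99.4%, counting error only), and 97 lay wholly inside H3K27me3. The interval treats the regions as independent, which neighbours inside the same H3K27me3 region are not. It therefore does not measure how far the share would vary between samples. The share over all H3K4me3 regions of the genome was 18.8%. Since the windows were drawn around wide H3K27me3 regions, the high share restates how they were chosen. All 26 H3K4me3 regions of HoxA, all 23 of HoxC and all 24 of HoxD lay wholly inside H3K27me3. HoxB held the 3 exceptions, which were the 5.0 kb and 200 bp regions without H3K27me3 and the 1.6 kb region with 25% of its length under it. By length, 75% of the H3K4me3 in the HoxB window lay under H3K27me3. The marks were precipitated separately from many cells, so whether single cells or single nucleosomes carried both cannot be told.

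H3K27me3 was in turn mostly free of H3K4me3. H3K4me3 covered 26.9% of the H3K27me3 length in the HoxA window, 18.3% in HoxD, 11.6% in HoxC and 10.2% in HoxB. Of the 22 H3K27me3 regions, 12 overlapped H3K4me3, compared with 37.5% of all H3K27me3 regions. The 10 without H3K4me3 were 6 in HoxB, 3 in HoxC and 1 in HoxD, the widest of them the 7.8 kb region of HoxB. The 25.4 kb region of HoxB overlapped H3K4me3 only outside the window, in 1 region of 400 bp (96268801 to 96269200). Of the 18 breaks in H3K27me3, 2 held H3K4me3, and both were in the posterior part of HoxB. The breaks of HoxA, HoxC and HoxD therefore did not coincide with called H3K4me3.

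Inside the widest H3K27me3 regions, H3K4me3 was spread along the whole length but not evenly. The HoxA domain held 24 H3K4me3 regions (28.4% of its length), HoxD 23 (18.0%), HoxC 21 (12.5%) and HoxB 17 (10.6%). Each domain was divided into 5 equal parts, counted from the posterior end. In HoxA the coverage by H3K4me3 was 39.4% in the first part and 44.6% in the second, then 17.4%, 21.8% and 18.7%. The posterior side of the midpoint of HoxA carried 21.4 kb of H3K4me3 (70.4% of that in the domain) in 15 regions, and the anterior side 9.0 kb in 9. In HoxD coverage was highest in the second part at 27.3%, next to 22.9% in the third, and 12.3 to 14.1% in the other 3. HoxB ranged only from 13.8% at the posterior end to 8.32% at the anterior end. HoxC had its highest coverage, 19.0%, in the fourth part, and its lowest, 7.75%, in the anterior one. The posterior side of the midpoint held 58.6% of the domain's H3K4me3 in HoxB, 59.8% in HoxD and 40.4% in HoxC. The clusters therefore shared no single gradient from posterior to anterior.

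**Figure D3:**
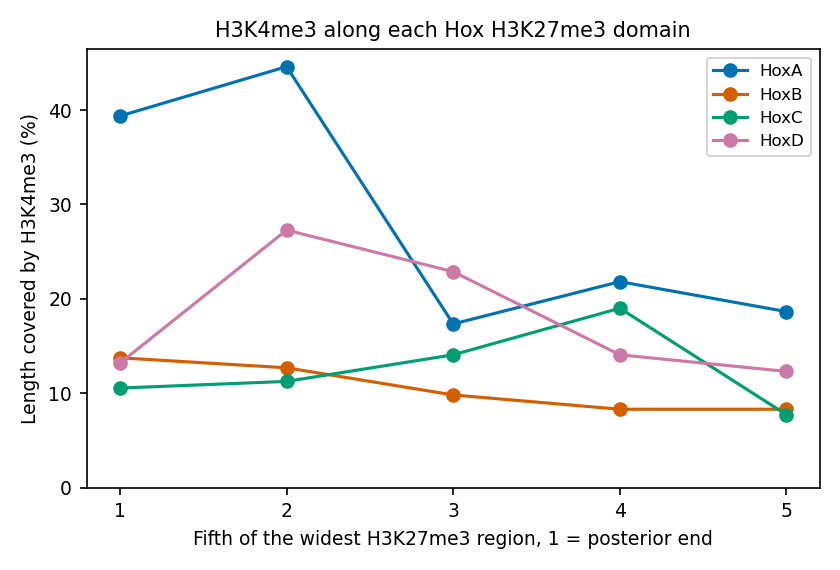
Share of length covered by H3K4me3 (%) in 5 equal parts of the widest H3K27me3 region of each cluster, from the posterior end (1) to the anterior end (5). HoxA stands highest in parts 1 and 2 (39.4 and 44.6%), HoxD peaks in part 2 (27.3%), HoxC in part 4 (19.0%), and HoxB stays between 8.32 and 13.8%.

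The longest stretches of each domain without H3K4me3 were of like length in all 4 clusters. In HoxA they measured 13 kb (52127601 to 52140600), 11.0 kb (52142601 to 52153600) and 6.6 kb (52101001 to 52107600), and the 2 longer ones lay side by side, parted by 1 H3K4me3 region of 2.0 kb. In HoxB they were 13.8 kb (96117401 to 96131200), 13.2 kb (96181001 to 96194200) and 11.6 kb (96148801 to 96160400). HoxC had stretches of 11.4 kb (102846401 to 102857800), 11.0 kb (102774001 to 102785000) and 10.2 kb (102787001 to 102797200). In HoxD the longest, 11.6 kb (74481401 to 74493000), was the posterior end of the domain itself, followed by 10.8 kb (74554201 to 74565000) and 9.8 kb (74574601 to 74584400). No stretch of any of these domains exceeded 13.8 kb without a called H3K4me3 region.

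The ends described here are the edges of the widest H3K27me3 region of each cluster. Among the H3K4me3 regions that overlapped a domain, the outermost stopped short of its edge in every case. Other H3K4me3 regions lay beyond the edges, the nearest 2.8 kb past the posterior edge of HoxA and 5.2 kb past the anterior edge of HoxD. At the posterior end the outermost H3K4me3 region inside the domain lay 2.6 kb from the edge in HoxA (52202601 to 52204000, 1.4 kb wide). It lay 5.6 kb from the edge in HoxB (96112201 to 96113800, 1.6 kb wide), 5.6 kb in HoxC (102740801 to 102741000, 200 bp wide) and 11.6 kb in HoxD (74493001 to 74494800, 1.8 kb wide). At the anterior end the distance was 1.2 kb in HoxA (52100601 to 52101000), 3.4 kb in HoxD (74590801 to 74591600), 5.4 kb in HoxC (102871401 to 102871800) and 11.0 kb in HoxB (96227001 to 96227800). No edge of these domains fell in a called H3K4me3 region, and the shortest distance was the 1.2 kb at the anterior end of HoxA. In HoxB the domain edge is not the end of the cluster's marks, since regions of both marks lay farther out on the posterior side. There the 27.6 kb H3K27me3 region ended at 96051000, where an H3K4me3 region (96051001 to 96052600) began.

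Beyond the ends, the clusters differed in how abruptly H3K27me3 stopped. Past the anterior end of HoxA the next H3K27me3 region lay 714.8 kb away, and the first 100 kb held no H3K27me3 and 2.0 kb of H3K4me3. Past the posterior end of HoxD the next lay 623.2 kb away, with no H3K27me3 and 2.6 kb of H3K4me3 in the first 100 kb. On the anterior side of HoxD the last H3K27me3 region of the window ended at 74604800, and the next lay 369.8 kb beyond it. For comparison, the median distance between neighbouring H3K27me3 regions was 9.4 kb over 18710 gaps in the genome, and these 3 distances exceeded 95.4%, 94.8% and 91.2% of them. The posterior side of HoxA was not empty, since the next H3K27me3 region lay 12.4 kb past the last one of the window and 30.4 kb of the first 100 kb beyond the domain was H3K27me3. HoxB and HoxC had no empty flank on either side. The last H3K27me3 region of the HoxB window was followed by the next after 25 kb on the anterior and 1.2 kb on the posterior side, and that of HoxC after 12 and 38.2 kb. In the 100 kb outside the widest region, H3K27me3 covered 67.6 kb posterior and 45.6 kb anterior of HoxB. The same distance held 10.0 kb posterior and 43.2 kb anterior of HoxC, where the posterior side held no H3K4me3 at all and the nearest H3K4me3 region lay 156.8 kb away.

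The posterior flank of HoxA, outside its window, held the widest H3K4me3 region within 100 kb of any of the 4 domains, a feature picked after its value was seen. It measured 10.4 kb (52255601 to 52266000), lay 49.0 kb from the posterior edge of the HoxA domain and ranked 14 in width among all H3K4me3 regions. No H3K27me3 overlapped it, but an H3K27me3 region of 9.0 kb (52266001 to 52275000) began at its end, and this region held 2 H3K4me3 regions of 1.2 and 1.0 kb. The H3K4me3 region next to the posterior edge of the HoxA domain was 2.2 kb wide (52209401 to 52211600) and lay inside the 13.6 kb H3K27me3 region. A wide H3K4me3 region without H3K27me3 was thus present on the posterior side of HoxA and of HoxB (5.0 kb), 49.0 and 40.6 kb from the respective domain. Their places were unlike, since the HoxA region lay outside its window and the HoxB region inside. Farther out in HoxB lay the H3K27me3 regions of 7.6 and 27.6 kb. On the posterior side of HoxC and HoxD the widest H3K4me3 region within 100 kb was 1.6 kb, in HoxD.

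The membership of regions at the window ends depended on where the ends were drawn. The HoxB window ended inside the 27.6 kb and 25.4 kb H3K27me3 regions, and the HoxC window inside the 3.2 kb one. The outermost H3K4me3 member of HoxB was a region of 200 bp that started 0.2 kb inside the window, and the nearest one outside, 600 bp wide, lay 3.2 kb beyond it. In HoxC the last H3K4me3 member (400 bp) ended at the window's end, and the next (1.0 kb) lay 16.2 kb beyond. In HoxA the nearest excluded regions were an H3K27me3 region of 2.8 kb and an H3K4me3 region of 1.0 kb, 10.0 and 10.8 kb past the posterior window end. In HoxD the nearest excluded H3K4me3 region was 40 kb away.

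The Hox domains were set beside other wide H3K27me3 regions as a description. Of 318 H3K27me3 regions over 20 kb, 4 were the Hox domains, 2 were the regions that crossed the ends of the HoxB window and 312 lay elsewhere. The 312 held 0 to 13 H3K4me3 regions with a median of 2, against 17 to 24 in the Hox domains. In number per length the Hox domains lay within the range of the 312 others. It was 2.24 per 10 kb in HoxA, 2.02 in HoxD, 1.48 in HoxC and 1.29 in HoxB, and 99 of the 312 others reached at least the HoxB value (median 0.851, highest 3.85). Likewise, 129 of the 312 had at least as much of their length under H3K4me3 as HoxB (10.6%). Among the 31 other regions over 50 kb, 6 reached 1.29 per 10 kb and 6 reached 10.6% of the length. Their highest values were 1.61 per 10 kb and 20.2% of the length. HoxA (2.24 per 10 kb, 28.4%) was above both, and HoxD was above the first (2.02 per 10 kb) and below the second (18.0%).

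The longest stretch without H3K4me3, relative to the domain, was also outside the range of the others in all 4 Hox domains. It was 8.03% of the length in HoxC, 10.2% in HoxD, 10.4% in HoxB and 12.1% in HoxA. In the 312 others it ranged from 15.6 to 100% with a median of 50.0%. In kb the longest free stretch of the Hox domains (11.4 to 13.8 kb) lay within the range of the 312 others (4.4 to 85.6 kb, median 15.2 kb). Of these 312, 139 had one of 13.8 kb or less. The low percentages thus rest in part on the great width of the Hox domains. Among the others over 50 kb the range was 8.8 to 85.6 kb (median 31.8 kb), and 2 had one of 13.8 kb or less. The H3K4me3 regions themselves were not unusual in width, with medians of 600 to 1000 bp per Hox domain and a median of 700 bp over the 29 other domains over 50 kb that had any. The other H3K27me3 regions over 100 kb were on chromosome 19 (44801801 to 44914800), chromosome 4 (115541001 to 115651400) and chromosome 6 (83309201 to 83414400). They held 5, 10 and 2 H3K4me3 regions, and their longest free stretches were 77.4, 37.4 and 82.0 kb.

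**Figure D4:**
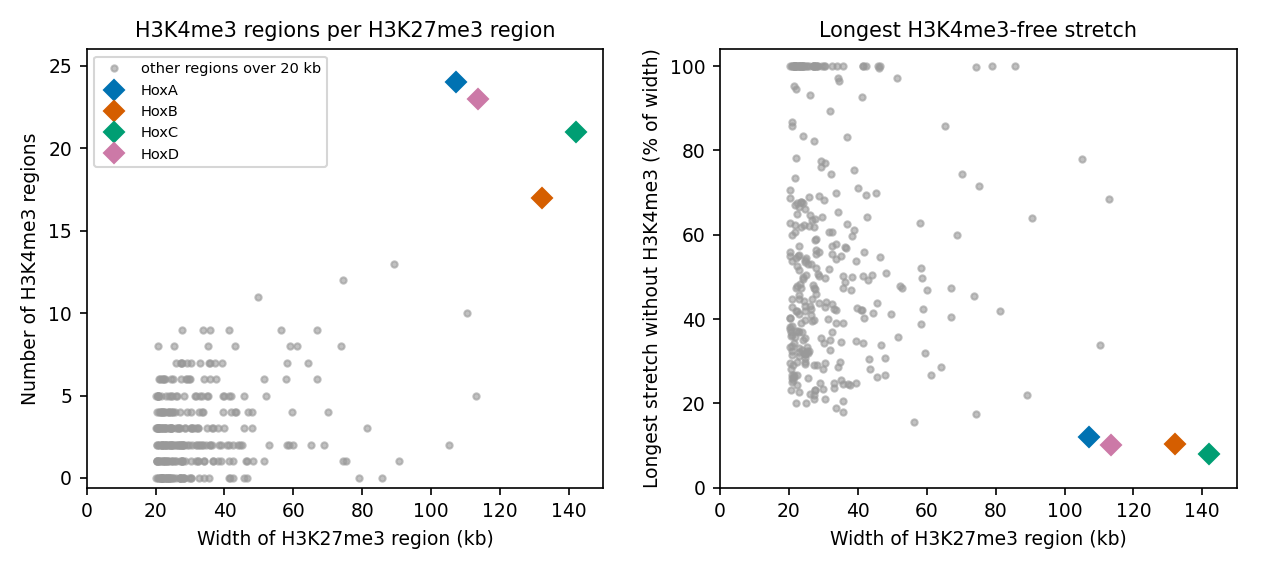
Number of H3K4me3 regions (left) and longest stretch without H3K4me3 as % of the width (right) against the width in kb of each H3K27me3 region over 20 kb, with the 4 Hox domains as diamonds and the 312 others as grey points. The Hox domains hold 17 to 24 H3K4me3 regions, against at most 13 in the others, and their longest free stretches are 8.03 to 12.1% of the width, against at least 15.6%.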

How the data were processed

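Both marks were profiled by ChIP-seq on formaldehyde-fixed, sonicated chromatin, with 2.4 µg of antibody and 20 amplification cycles per library, per the labels' protocols. The submitters' processing notes name Bowtie 0.12.7 and build mm9. For each mark the authors deposited a list of contiguous regions from ChromHMM, a hidden Markov model of chromatin states, with start and end in bp on a 200-bp grid and no other value. How ChromHMM was set, whether the input entered the calls and how the 2 replicates were combined is not given in the sources used here. A 200-bp region is the smallest possible call, so widths and gaps below that size cannot be seen.

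Regions overlapping a window by at least 1 bp were members, and lengths were clipped to the window for coverage. Coordinates count from 1. The windows, the genes and the measures were chosen with earlier results of these data known, so no test was made. In each window all H3K27me3 regions, the 3 widest H3K4me3 regions (ties included), the outermost H3K4me3 regions of the widest H3K27me3 region, the H3K4me3 regions without H3K27me3 and the 3 longest free stretches were named. Outside the windows, H3K27me3 regions over 100 kb were named. RefSeq tables of GRCm38.p6 gave gene order and promoter sequences only. The interval functions were tested on simulated data. Python 3.11.15, numpy 2.4.6, pandas 2.3.3 and scipy 1.17.1 were used. Alternatives were regions wider than 400 bp, regions less than 1 kb apart joined, windows widened by 50 kb on both sides, the widest H3K27me3 region in place of the window, and overlaps of 400 bp or 50% of the shorter region.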

Additional observations from a re-analysis of the deposited data

How the results depend on the processing

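A count, length, width, gap or share of H3K4me3 length was taken as stable up to a 1.5-fold difference from the reported one. The share of regions was taken as stable as long as it stayed inside its Wilson interval, used here only as a limit. For 29 results, 118 values were computed under alternatives, and 15 moved. Joining regions less than 1 kb apart moved none of its 29. With regions wider than 400 bp, HoxB had 15 H3K4me3 regions, a median width of 1000 bp and a median gap of 8.4 kb, and the median gap of HoxD became 5.2 kb. The order of the clusters by number, width and spacing changed under this setting, in which HoxA still had the widest and most closely spaced regions. Windows widened by 50 kb held 5 H3K27me3 regions in HoxA and 12 in HoxC, and 91.5% of the H3K4me3 regions in all widened windows overlapped H3K27me3. The share of H3K4me3 length under H3K27me3 fell there from 100% to 76.4% in HoxA and to 92.5% in HoxD. Under the 1.5-fold rule both counted as unmoved. With the widest H3K27me3 region in place of the window, each cluster had 1 H3K27me3 region by construction, HoxB had 17 H3K4me3 regions with a median gap of 5.7 kb, and the share of H3K4me3 regions with H3K27me3 was 100%. With an overlap of at least 400 bp that share was 89.0%, since regions of 200 bp cannot reach it. The other causes were not tested. No paired analysis was possible because each mark has 1 list, and leaving out a replicate was impossible for that reason. The depth, and with it which weak regions and breaks could be called, is unknown.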
